A study of Mus musculus with 27 samples.

Results

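The CXC chemokines described here are 7 genes of the deposited table of 55483 mouse genes: Cxcl1, Cxcl2, Cxcl3, Cxcl9, Cxcl10, Cxcl11 and Cxcl16. They were chosen by gene symbol with earlier results of these data known, and each had 1 row. The 27 sequencing libraries were made from RAW264.7, an established macrophage line of the mouse. Total RNA was profiled, as was RNA recovered with an antibody to HuR, a procedure called RNA immunoprecipitation or RIP, and RNA recovered with control IgG. Cells were collected at 6 h. The DMSO group received the solvent alone. The LPS group received lipopolysaccharide, a bacterial cell wall component that activates macrophages, at 1 µg/ml together with DMSO. The LPS+TM7nox group received LPS and TM7nox, a tanshinone mimic, a class of small molecules made to interfere with HuR and used at 10 µM per the labels. No group received TM7nox without LPS. Each treatment had 4 RNA libraries, 4 anti-HuR RIP libraries and 1 IgG library, the last always replicate 3. All libraries came from 1 cell line, and nothing in the labels says whether the replicates were separate cultures, so p-values measure the spread between these samples, which may be technical.

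Chemokines are small secreted proteins that guide white blood cells, and the CXC class carries 1 residue between its first conserved cysteines. Cxcl1, Cxcl2 and Cxcl3 signal through Cxcr2 and draw neutrophils. Cxcl9, Cxcl10 and Cxcl11 are induced by interferons and signal through Cxcr3 on activated T cells and natural killer cells, while Cxcl16 is made as a transmembrane protein, binds Cxcr6 and is shed by the proteases Adam10 and Adam17. In macrophages, LPS acts through NF-kB and through interferon beta, and many of the mRNAs it induces are short-lived because AU-rich stretches of the 3′ UTR recruit decay factors. HuR, encoded by Elavl1, binds U-rich and AU-rich RNA and is known for stabilising such mRNAs.

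The libraries held 2728534 to 41449233 counts. The shallowest was RNA DMSO replicate 1, and among the others the lowest was the IgG library of LPS+TM7nox, at 8873091. All 8 macrophage markers examined were above 0 in every library and summed to 2574 to 5784 CPM in the RNA libraries. Markers of T cells, B cells, neutrophils, fibroblasts and epithelium (3 each) summed to at most 0.347 CPM in any RNA library, and the 3 endothelial markers to 0.226 to 2.83 CPM. In RNA, 1 neutrophil and 2 epithelial markers were at 0 throughout. With LPS in RNA, 5 of the 8 macrophage markers were called higher and 1 lower, and 1 endothelial marker passed the filter and was called higher. Over all genes, 20.2% were called higher and 21.7% lower in that comparison. With TM7nox against LPS, 3 of the 8 macrophage markers were called lower and 0 higher in RNA (median log2 fold change -0.32), and 4 lower and 0 higher in RIP (median -0.76). Over all genes, 6.4% were called lower in RNA and 7.61% in RIP. The part of these in the results was not tested, and in bulk RNA fewer cells of a kind and less RNA per cell cannot be told apart. Elavl1 mRNA averaged 89.9, 110 and 94.2 CPM in RNA under DMSO, LPS and LPS+TM7nox, against 2608, 3696 and 3757 CPM in RIP and 61.1, 91.1 and 79.2 CPM in the single IgG libraries. CPM is a gene's count relative to its library's size, with all 27 libraries on 1 TMM scale. A gene was called when the false discovery rate (FDR, the adjusted p over all genes tested) of edgeR's quasi-likelihood test was under 0.05, and log2 fold changes are given with their standard error (SE).

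The genes lie in 2 places of the mouse genome (GRCm39, GENCODE M39). Cxcl3 (chr5:90933962-90937459), Cxcl1 (chr5:91039094-91040974) and Cxcl2 (chr5:91051730-91053797) are on the plus strand of chromosome 5. Cxcl9 (chr5:92469206-92475945), Cxcl10 (chr5:92494497-92496748) and Cxcl11 (chr5:92507403-92513344) follow on the minus strand of the same chromosome, and Cxcl16 is on the minus strand of chromosome 11 (chr11:70344517-70352620). Each has 4 exons in its reference transcript except Cxcl16, which has 5. Cxcl10 and Cxcl11 overlap Art3 on the other strand, and Cxcl11 also overlaps Gm2673. Cxcl16 overlaps Med11 and Zmynd15. Whether counting used the strand is not given in the sources used here, so reads in these overlaps could belong to either gene. Art3 had group means of 0.235 to 0.597 CPM and Gm2673 had no count in any library. Med11 had group means of 6.51 to 20.4 CPM and Zmynd15 of 0.916 to 3.45 CPM. Of the 50-base stretches of their transcripts, Cxcl2 shared 5.84% with Cxcl3 and Cxcl3 shared 3.51% with Cxcl2, so Cxcl3, the far rarer of the pair, is the less certain. No other pair of the 7 genes shared any.

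The 3′ UTRs separate the neutrophil chemokines from the others, and the 30 bases with the most AU-rich pentamers are shown for each because HuR and mRNA decay factors bind such elements. Sequences are 5′ to 3′ on the transcript strand, and capitals mark the pentamer ATTTA, written with T for U.
Cxcl1: tcctATTTATTTAtgtATTTATTTAttcca
Cxcl2: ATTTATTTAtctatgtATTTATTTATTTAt
Cxcl3: gcatcttATTTAatgtttATTTAatatcaa
Cxcl9: aaaacttaaccaATTTAaagaacattttct
Cxcl10: gtaagactacaaATTTAagtttgtaaggac
Cxcl16: agctaagatgttATTTAgtccaagccagcc

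The stretches lie at chr5:91040466-91040495 (Cxcl1), chr5:91053187-91053216 (Cxcl2) and chr5:90935495-90935524 (Cxcl3) on the plus strand. Those on the minus strand are at chr5:92470909-92470938 (Cxcl9), chr5:92494795-92494824 (Cxcl10) and chr11:70345928-70345957 (Cxcl16). In the whole 3′ UTR, Cxcl2 held 11 pentamers in 734 bases, Cxcl1 held 7 in 592 bases and Cxcl3 held 5 in 645 bases. Cxcl9 held 3 in 2452 bases, while Cxcl10 held 2 in 729 bases and Cxcl16 held 2 in 1713 bases. The longer AU-rich nonamer TTATTTATT occurred 4 times in Cxcl2, 2 times in Cxcl1 and 1 time in Cxcl3, and not in the other 3 UTRs. Among 20265 coding genes with a 3′ UTR of at least 50 bases, the median was 2 pentamers, 68.7% held at least 1, and 8.54% held the nonamer. At 15.0 pentamers per kb, Cxcl2 was in the top 0.35% of these genes. Cxcl11 has no 3′ UTR entry here, because GENCODE marks its reference transcript as a coding transcript with loss of function.

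RefSeq promoters (GRCm38.p6, a different build from the gene positions above) were matched for 5 of the 7 genes, and Cxcl11 and Cxcl16 had no entry. The 250 bases before the start of Cxcl2 (chr5:90903649-90903898, plus strand) and of Cxcl10 (chr5:92348890-92349139, minus strand) are shown because these genes moved in opposite directions under TM7nox. Capitals mark matches on either strand to the NF-kB motif in Cxcl2 and to the core of the interferon-stimulated response element in Cxcl10.
Cxcl2: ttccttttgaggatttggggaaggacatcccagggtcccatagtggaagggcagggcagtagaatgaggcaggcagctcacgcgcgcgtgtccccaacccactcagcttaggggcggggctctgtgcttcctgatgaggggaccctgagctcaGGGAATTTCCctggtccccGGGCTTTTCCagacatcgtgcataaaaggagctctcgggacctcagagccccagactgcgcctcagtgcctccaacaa
Cxcl10: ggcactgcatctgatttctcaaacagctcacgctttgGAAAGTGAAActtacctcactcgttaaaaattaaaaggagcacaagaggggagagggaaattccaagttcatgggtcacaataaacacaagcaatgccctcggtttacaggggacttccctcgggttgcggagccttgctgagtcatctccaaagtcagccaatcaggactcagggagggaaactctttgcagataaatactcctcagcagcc

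The strict NF-kB motif occurred 2 times in Cxcl2, 2 times in Cxcl1 and 1 time in Cxcl3, and in neither the Cxcl9 nor the Cxcl10 window. Of 32851 promoter windows of this length, 1.41% held it. A looser form of the motif, whose matches include and overlap those of the stricter motif, occurred in all 5 promoters and in 45.8% of windows. The response element core occurred in Cxcl10 alone among the 5, 213 bases before the start, and in 2.98% of windows. A TATAAA match was present in Cxcl3, at -30 from the start, in Cxcl9, at -195, and in 12.4% of windows.

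**Figure D1:**
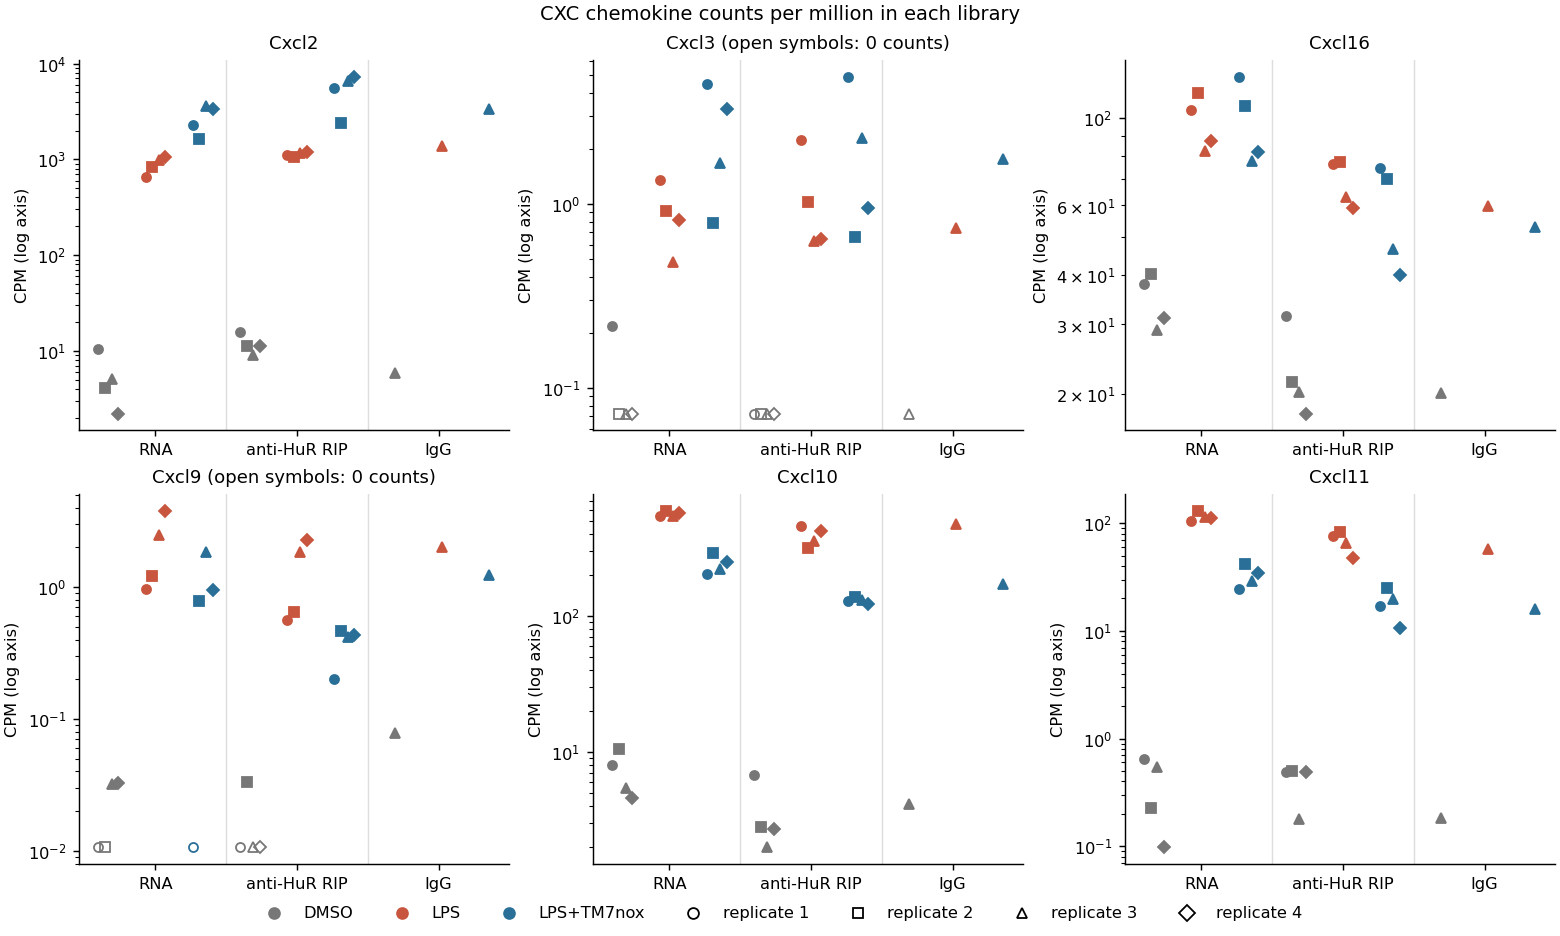
Level of 6 CXC chemokines in each library, as CPM on log axes whose ranges differ between panels, by assay (RNA, anti-HuR RIP, IgG) and treatment; 1 symbol per library, shape for the replicate number, open symbols for a count of 0 drawn at the foot of the axis. Cxcl2 rises from DMSO to LPS to LPS+TM7nox in all 3 assays, from 2.22 to 10.4 CPM through 649 to 1049 CPM to 1639 to 3621 CPM in RNA, while Cxcl10 and Cxcl11 are highest in LPS.

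In total RNA, Cxcl2, Cxcl10 and Cxcl16 rose with LPS from levels already measurable in DMSO, and Cxcl11 rose from a few counts. Cxcl2, which recruits neutrophils, measured 10.4, 4.10, 5.08 and 2.22 CPM in the 4 RNA libraries in DMSO and 649, 828, 976 and 1049 CPM in LPS. The groups did not overlap, and the fitted rise was 174-fold (log2 fold change 7.44, SE 0.46, edgeR FDR 2.23e-08). Cxcl10 measured 8.05, 10.6, 5.40 and 4.60 CPM in DMSO and 547, 598, 548 and 570 CPM in LPS, a rise of 77.0-fold (6.27, SE 0.27, edgeR FDR 1.36e-09). Cxcl11 measured 0.653, 0.226, 0.544 and 0.0978 CPM in DMSO, from 3, 9, 17 and 3 counts, and 105, 131, 113 and 112 CPM in LPS. Its fitted rise was 358-fold (8.48, SE 0.35, edgeR FDR 1.09e-09), with no overlap between the groups. Cxcl16 was the member with the highest CPM in every unstimulated RNA library, at 37.9, 40.2, 29.1 and 31.2 CPM, and reached 104, 115, 82.5 and 87.1 CPM in LPS. That was a rise of 2.72-fold (1.44, SE 0.18, edgeR FDR 2.06e-05).

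The remaining ligands were rare. Cxcl3 had 1 count over the 4 DMSO libraries, in replicate 1, and 1.35, 0.910, 0.486 and 0.816 CPM in LPS. Over pooled counts its LPS to DMSO ratio was 92.1, with a 95% counting interval of 16.1 to 3673. Cxcl9 had 2 counts in DMSO and 0.961, 1.20, 2.47 and 3.80 CPM in LPS, a pooled ratio of 117 with an interval of 32.0 to 969. Both were called higher with LPS (edgeR FDR 0.000469 for Cxcl3 and 0.000449 for Cxcl9), though not in replicates 1 and 2 alone (0.106 and 0.114). Cxcl3, Cxcl9 and Cxcl11 passed the filter on low counts through their LPS-treated libraries alone, so their calls carry no weight as a count of responding members. Cxcl1 had no count in any DMSO or LPS RNA library, which puts each group mean under the 0.0282 and 0.0262 CPM that a floor of 3 counts per group allows. It had 4 counts and 1 count in 2 of the LPS+TM7nox RNA libraries and did not enter the tests. Its ratio to the DMSO floor was 1.76, and 0.479 without replicate 2, which held the 4 counts, so no rise can be read from it. Of all 12369 genes tested, 20.2% were called higher with LPS.

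Compared per kb of reference transcript, the order of levels changed with treatment. In DMSO RNA, Cxcl16 was highest at 11.6 ± 1.76 CPM per kb (SD, n = 4), above Cxcl10 at 6.50 ± 2.46 and Cxcl2 at 4.92 ± 3.18 CPM per kb. The libraries of Cxcl10 and Cxcl2 overlapped in that order, as did those of Cxcl11, Cxcl3 and Cxcl9, which reached at most 0.214 CPM per kb in any library. In LPS RNA, Cxcl2 was highest at 788 ± 159 CPM per kb, above Cxcl10 at 514 ± 21.8 CPM per kb without overlap. Cxcl16 and Cxcl11 came next at 32.5 ± 5.08 and 30.4 ± 2.96 CPM per kb and overlapped. With the union of all exons as the length, Cxcl11 stood above Cxcl16 instead, at 30.4 against 19.0 CPM per kb, and Cxcl9 stood above Cxcl3. In LPS+TM7nox the order was Cxcl2 at 2442 ± 831, Cxcl10 at 220 ± 35.8, Cxcl16 at 32.9 ± 7.67 and Cxcl11 at 8.57 ± 1.91 CPM per kb, with no overlap between neighbours.

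TM7nox, added with LPS, was compared with LPS alone to see how the ligands differed. In total RNA, the neutrophil chemokine Cxcl2 rose further while the Cxcr3 ligands Cxcl10 and Cxcl11 fell. Cxcl2 measured 2265, 1639, 3621 and 3327 CPM with TM7nox, each above the 1049 CPM that was the highest LPS value. The rise was 3.07-fold (log2 fold change 1.62, SE 0.34, edgeR FDR 0.00629). Cxcl10 measured 203, 294, 222 and 249 CPM, each under the 547 CPM that was the lowest LPS value, and fell by 1.24 on the log2 scale (SE 0.21, edgeR FDR 0.00137), or 2.36-fold. Cxcl11 measured 24.8, 41.7, 29.3 and 34.3 CPM and fell by 1.84 on the log2 scale (SE 0.23, edgeR FDR 0.000133), or 3.57-fold, again without overlap. Across all genes in this comparison, 7.37% were called higher and 6.4% lower.

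Cxcl16 did not pass the test, with 127, 107, 77.8 and 81.9 CPM under TM7nox, inside and around its LPS range of 82.5 to 115 CPM (log2 fold change 0.00, SE 0.18, edgeR FDR 0.994). Cxcl3 measured 4.51, 0.790, 1.66 and 3.28 CPM, so that 3 of 4 libraries exceeded every LPS library, and its log2 difference of 1.50 (SE 0.59) had an edgeR FDR of 0.114. Cxcl9 had no count in replicate 1 and 0.790, 1.83 and 0.949 CPM in the others. These overlapped its LPS values, and its log2 difference was -1.23 (SE 0.72, edgeR FDR 0.314). Without the filter on low counts, Cxcl3 was called over all 12 libraries (1.50, edgeR FDR 0.039). With edgeR restricted to replicates 3 and 4, Cxcl3 and Cxcl9 were called (log2 1.89, FDR 0.0148, and -1.15, FDR 0.0363). In replicates 1 and 2 alone the calls of Cxcl2 (1.39, edgeR FDR 0.138) and Cxcl10 (-1.22, edgeR FDR 0.0577) were lost, while Cxcl11 kept its call. Each member's call was the same with the replicate number as a paired block.

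**Figure D2:**
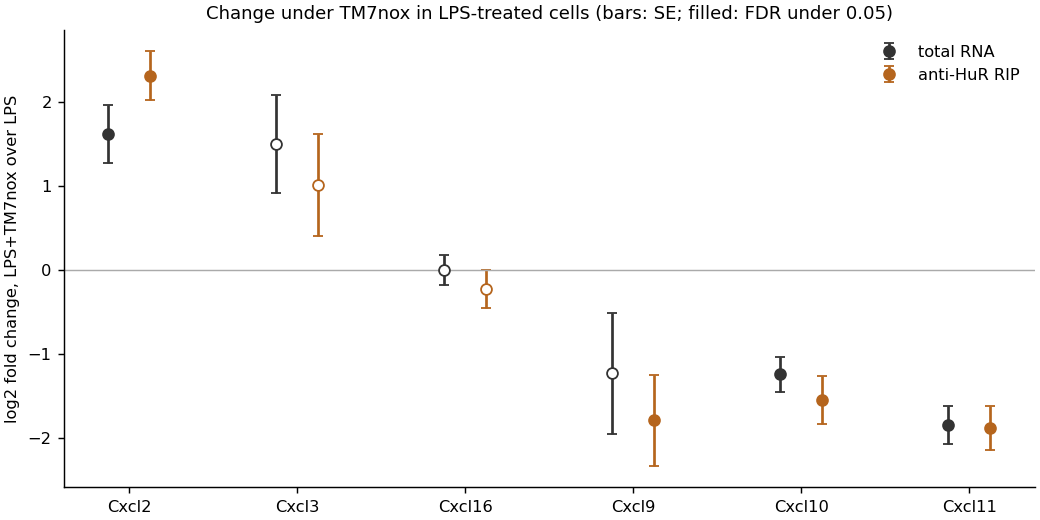
Log2 fold change of LPS+TM7nox over LPS for 6 members in total RNA (dark) and anti-HuR RIP (brown), with bars for 1 SE and filled points for an edgeR FDR under 0.05. Cxcl2 lies above 0 in both assays, at 1.62 and 2.32, and Cxcl10 and Cxcl11 lie below 0 in both, between -1.24 and -1.88.

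Despite the fall, Cxcl10 with LPS+TM7nox was 32.6-fold higher than with DMSO in RNA (edgeR FDR 5.82e-09). The fitted ratio for Cxcl11 was 100, and it is a description only, because Cxcl11 passed the filter through the LPS-treated libraries. Cxcl2 was 534-fold higher (edgeR FDR 8.91e-09) and Cxcl16 was 2.73-fold higher (edgeR FDR 1.57e-05). The pooled ratios to DMSO were 253 for Cxcl3, with a counting interval of 44.9 to 10019, and 52.3 for Cxcl9, with an interval of 14.1 to 438. Without RNA LPS+TM7nox replicate 3, which held 56 of 99 counts, the Cxcl9 ratio was 32.7. In this comparison 23.7% of genes were called higher. The comparisons with DMSO share the DMSO libraries, and those with LPS share the LPS libraries.

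The opposite movement of Cxcl2 and Cxcl10 can be read within each library, as the ratio of their counts, which needs no scaling between libraries. In RNA the ratio was 1.30, 0.388, 0.941 and 0.482 in DMSO and 1.19, 1.38, 1.78 and 1.84 in LPS. With TM7nox it was 11.2, 5.58, 16.3 and 13.4, above every LPS library. In RIP it was 2.29, 3.98, 4.55 and 4.15 in DMSO and 2.39, 3.33, 3.27 and 2.78 in LPS, which overlapped. It reached 43.5, 17.3, 50.03 and 58.6 with TM7nox. The IgG libraries gave 1.43, 2.91 and 19.4 in the same order of treatments. Replicate 2 had the lowest ratio under TM7nox in both RNA and RIP, and the lowest Cxcl2 in both. The ratio was chosen after the values had been seen and carries no test.

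**Figure D3:**
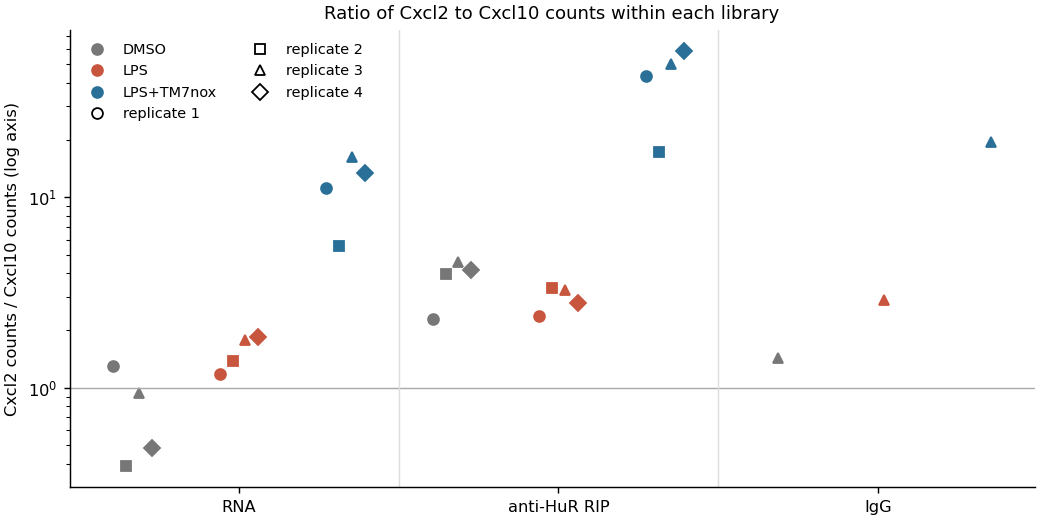
Cxcl2 counts divided by Cxcl10 counts within each library, on a log axis, by assay and treatment, with 1 symbol per library and the horizontal line at equal counts. The LPS+TM7nox libraries, at 5.58 to 16.3 in RNA and 17.3 to 58.6 in RIP, lie above all LPS libraries of their assay.

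In the RNA recovered with anti-HuR, the means of Cxcl2 rose from DMSO through LPS to LPS+TM7nox, and those of Cxcl10 and Cxcl11 were highest in LPS, as in total RNA. Cxcl2 measured 15.6, 11.2, 9.05 and 11.2 CPM in DMSO, 1099, 1050, 1160 and 1186 CPM in LPS, and 5603, 2410, 6593 and 7251 CPM with TM7nox. No group overlapped another. The rise with LPS was 91.0-fold (log2 6.51, SE 0.36, edgeR FDR 1.34e-09) and the further rise with TM7nox 4.99-fold (2.32, SE 0.29, edgeR FDR 9.6e-05). Cxcl10 measured 6.82, 2.81, 1.99 and 2.70 CPM, then 459, 316, 354 and 427 CPM, then 129, 139, 132 and 124 CPM. It was 103-fold higher with LPS (6.69, SE 0.37, edgeR FDR 1.38e-09) and 2.91-fold lower with TM7nox than with LPS (-1.54, SE 0.29, edgeR FDR 0.00211). Cxcl11 measured 0.494, 0.503, 0.178 and 0.490 CPM, then 75.7, 82.6, 65.7 and 48.0 CPM, then 17.0, 25.1, 19.7 and 10.6 CPM. It passed the filter through its LPS-treated libraries here too, with 6 to 15 counts per DMSO library, so its LPS call carries no weight. The fitted LPS ratio was 157-fold (7.30, SE 0.36, edgeR FDR 3.24e-10), and it was 3.68-fold lower with TM7nox (-1.88, SE 0.26, edgeR FDR 0.000206).

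Cxcl16, the transmembrane ligand, measured 31.4, 21.5, 20.2 and 17.8 CPM in DMSO RIP, 76.3, 77.5, 63.1 and 59.0 CPM in LPS and 74.6, 70.1, 46.4 and 40.1 CPM with TM7nox. Its 2.89-fold rise with LPS was called (edgeR FDR 5.94e-05), and the TM7nox difference was not (-0.22, SE 0.22, edgeR FDR 0.543). In RNA and in RIP, replicates 1 and 2 of Cxcl16 lay above replicates 3 and 4 in each treatment. Cxcl3 had no count in any DMSO RIP library, 2.22, 1.02, 0.627 and 0.641 CPM in LPS and 4.90, 0.659, 2.29 and 0.955 CPM with TM7nox. Against a floor of 3 counts over the DMSO group it was at least 44.6-fold higher in LPS and at least 99.2-fold higher with TM7nox. Replicate 1 held 47 of the 89 LPS counts and 121 of the 202 LPS+TM7nox counts, and without it these bounds were 29.1 and 58.3. Its TM7nox difference from LPS was not called (1.02, SE 0.61, edgeR FDR 0.281). That difference was 0.25 without RIP LPS+TM7nox replicate 1 and 1.62 without RIP LPS replicate 1, and was called in neither case (edgeR FDR 0.811 and 0.135). Cxcl1 had 7, 8 and 14 counts over the 4 RIP libraries of DMSO, LPS and LPS+TM7nox, which is too few for a comparison.

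Cxcl9 was rare in RIP and passed the filter through its LPS libraries, the group where it is high, so its difference under TM7nox is given as values and its call carries no weight. It had 1 count over the DMSO libraries, which gave pooled ratios of 147 in LPS (interval 25.8 to 5872) and 41.2 with TM7nox (6.82 to 1686). Its levels were 0.567, 0.643, 1.83 and 2.27 CPM in LPS, and 0.202, 0.461, 0.420 and 0.434 CPM with TM7nox, each under every LPS value. The difference of -1.79 (SE 0.54, edgeR FDR 0.0343) rested on 98 counts against 28. It was not called without RIP LPS replicate 3 (edgeR FDR 0.0918) or 4 (0.127), or without RIP LPS+TM7nox replicate 1 (0.091), 2 (0.0684), 3 (0.0676) or 4 (0.0643), nor in replicates 1 and 2 alone (0.53). In RIP, 23.5% of 13614 genes were called higher with LPS than with DMSO and 25.1% with LPS+TM7nox than with DMSO. Of the genes called in these comparisons, 52.6% and 52.1% were higher, against 35.6% and 37.1% with upper-quartile scaling, which moved the median of all genes by -0.24 in both. With TM7nox against LPS, 8.64% were called higher and 7.61% lower. Against DMSO in RIP, LPS+TM7nox gave 454-fold more Cxcl2, 35.4-fold more Cxcl10 and 2.48-fold more Cxcl16, each called by edgeR (largest FDR 0.000212, for Cxcl16). The fitted ratio for Cxcl11 was 42.8, a description only, since Cxcl11 passed the filter through the LPS-treated libraries.

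How much of each mRNA the anti-HuR antibody recovered was compared with total RNA and with IgG. Both ratios rest on the TMM factors, which range from 0.528 to 0.985 in RIP, 1.12 to 1.68 in RNA and 1.27 to 1.81 in IgG, so they are relative to the bulk of genes and not to library totals. As a share of all counts, without these factors, Cxcl2 in LPS was lower in RIP (0.0678% ± 0.00801, SD, n = 4) than in RNA (0.105% ± 0.0154), the opposite direction to the ratio below. With LPS+TM7nox the shares were 0.340% ± 0.142 in RIP and 0.315% ± 0.102 in RNA, and in the single IgG libraries 0.176% in LPS and 0.432% in LPS+TM7nox. Over RNA, Cxcl2 was higher in RIP in DMSO (log2 1.41, SE 0.35, edgeR FDR 0.000926) and with LPS+TM7nox (1.06, SE 0.32, edgeR FDR 0.00511), but not called with LPS (0.35, SE 0.32, edgeR FDR 0.342). Cxcl10 was lower in RIP than in RNA in DMSO (-0.85, SE 0.29, edgeR FDR 0.0107) and with LPS+TM7nox (-0.83, SE 0.27, edgeR FDR 0.00779). With LPS it had -0.54 (SE 0.26, edgeR FDR 0.0779). The DMSO call was lost without RNA DMSO replicate 2 (-0.53, edgeR FDR 0.109), and the value was -1.40 (edgeR FDR 2.58e-05) without RIP DMSO replicate 1. The LPS difference was called with the replicate number as a paired block (-0.55, edgeR FDR 0.0401) and without RIP DMSO replicate 1 (-0.54, edgeR FDR 0.0231).

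Cxcl11 was lower in RIP than in RNA with LPS (-0.76, SE 0.25, edgeR FDR 0.0112) and with LPS+TM7nox (-0.79, SE 0.26, edgeR FDR 0.00881), and had 0.49 (SE 0.46, edgeR FDR 0.353) in DMSO from 46 against 32 counts. Its share of all counts in DMSO was instead lower in RIP, at 4.06e-05% ± 1.57e-05 (SD, n = 4) against 6.04e-05% ± 4.46e-05 in RNA. The LPS+TM7nox call was lost without RIP LPS+TM7nox replicate 4 (-0.56, edgeR FDR 0.0557). Cxcl16 was lower in all 3 treatments, by 0.46 in DMSO, 0.49 in LPS and 0.69 in LPS+TM7nox on the log2 scale (SE 0.20 each, edgeR FDR 0.0457, 0.0354 and 0.00404). In DMSO this call was lost without RNA DMSO replicate 2 (edgeR FDR 0.143) or 4 (0.0512) and without RIP DMSO replicate 2 (0.0949), 3 (0.0614) or 4 (0.133). In LPS it was lost without RNA LPS replicate 1 (edgeR FDR 0.0525) or 2 (0.117) and without RIP LPS replicate 3 (0.0984) or 4 (0.108). Under the RLE scaling of DESeq2, which raised the median RIP over RNA of all genes by 0.16 in DMSO, 0.18 in LPS and 0.22 in LPS+TM7nox on the log2 scale, Cxcl16 kept its direction and was called in no treatment. Cxcl11 kept its direction in LPS and LPS+TM7nox and was called in neither (edgeR FDR 0.0585 and 0.0654). Cxcl3 and Cxcl9 were not called in LPS (0.37 and -0.70, SE 0.63 and 0.65) or in LPS+TM7nox (-0.08 and -1.26, SE 0.59 and 0.73). Without RNA LPS+TM7nox replicate 1, which had no Cxcl9 count, Cxcl9 was called lower in RIP there (-1.67, edgeR FDR 0.0159). In DMSO both had too few counts for a ratio.

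Such calls were common. Of 14311 genes tested, 37% were called higher and 33.4% lower in RIP than in RNA in DMSO. The shares were 32.9% and 30.8% in LPS, and 35.2% and 34.8% in LPS+TM7nox. Whether RIP over RNA itself changed between treatments was tested as an interaction, and edgeR called no member, against 0.0419% of genes for LPS against DMSO and 0.00699% for LPS+TM7nox against LPS. Cxcl2 (-1.06, SE 0.47, edgeR FDR 0.643) and Cxcl11 (-1.25, SE 0.53, edgeR FDR 0.631) had an unadjusted p under 0.05 for LPS against DMSO. No share over all genes is given at that cut, so it carries no weight. No member reached it for LPS+TM7nox against LPS. DESeq2 also called 0 members in either. For Cxcl2 the second interaction was 0.71 (SE 0.45, edgeR FDR 0.871), so the larger TM7nox difference of Cxcl2 in RIP than in RNA was not called.

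Against IgG, edgeR with treatment as a covariate called no member of the 6 tested higher with anti-HuR. Cxcl2 had a log2 ratio of 0.39 (SE 0.29, edgeR FDR 0.243), Cxcl3 of 0.48 (SE 0.67, edgeR FDR 0.541), Cxcl10 of -0.29 (SE 0.24, edgeR FDR 0.295), Cxcl11 of 0.33 (SE 0.26, edgeR FDR 0.265) and Cxcl16 of 0.19 (SE 0.20, edgeR FDR 0.406). Cxcl9 was called lower with anti-HuR than with IgG (-1.33, SE 0.52, edgeR FDR 0.0296). That call was lost without RIP LPS replicate 2 (-1.17, edgeR FDR 0.0548), IgG DMSO (-1.11, 0.085) or IgG LPS+TM7nox (-1.10, 0.171), and in replicate 3 alone (-0.92, 0.237). Over all 14973 genes tested, 33.8% were called higher and 34.2% lower with anti-HuR.

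The IgG libraries held reads of these mRNAs too. Against total RNA of replicate 3 on the log2 scale, IgG was 0.22, 0.50 and -0.10 for Cxcl2 in DMSO, LPS and LPS+TM7nox, and -0.38, -0.20 and -0.36 for Cxcl10. It was -1.57, -0.97 and -0.88 for Cxcl11 and -0.53, -0.47 and -0.55 for Cxcl16. In replicate 3 with LPS, Cxcl2 measured 976 CPM in RNA, 1160 CPM in RIP and 1383 CPM in IgG. With LPS+TM7nox the same 3 assays gave 3621, 6593 and 3371 CPM, and in DMSO 5.08, 9.05 and 5.93 CPM. On this scale RIP exceeded IgG for Cxcl2 in DMSO and LPS+TM7nox and lay below it in LPS. As a share of all counts, without the TMM factors, RIP lay below IgG in each treatment of replicate 3, at 0.000868% against 0.00107% in DMSO, 0.0636% against 0.176% in LPS and 0.417% against 0.432% in LPS+TM7nox. Without the LPS IgG library, Cxcl2 was called higher with anti-HuR (0.92, edgeR FDR 0.0214), and in replicate 3 alone it was called as well (0.52, edgeR FDR 0.0276). Without the DMSO IgG library the ratio was 0.15 (edgeR FDR 0.716), and without that of LPS+TM7nox 0.20 (edgeR FDR 0.647). Cxcl10 lay below IgG in all 3 treatments of replicate 3, with 1.99 against 4.16 CPM in DMSO, 354 against 476 CPM in LPS and 132 against 174 CPM in LPS+TM7nox. It was called lower than IgG in replicate 3 alone (-0.50, edgeR FDR 0.0107) and without RIP DMSO replicate 1 (-0.43, edgeR FDR 0.025). Cxcl11 in replicate 3 measured 65.7 CPM in RIP and 58.0 CPM in IgG in LPS, and 19.7 and 15.9 CPM in LPS+TM7nox. As shares of all counts RIP was the lower, at 0.00361% against 0.00737% and 0.00124% against 0.00204%. Cxcl16 measured 63.1 and 59.8 CPM in LPS and 46.4 and 53.0 CPM in LPS+TM7nox, and its shares were likewise lower in RIP, at 0.00346% against 0.0076% and 0.00294% against 0.0068%. With 1 IgG library per treatment, the spread of IgG values within a treatment could not be measured.

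**Figure D4:**
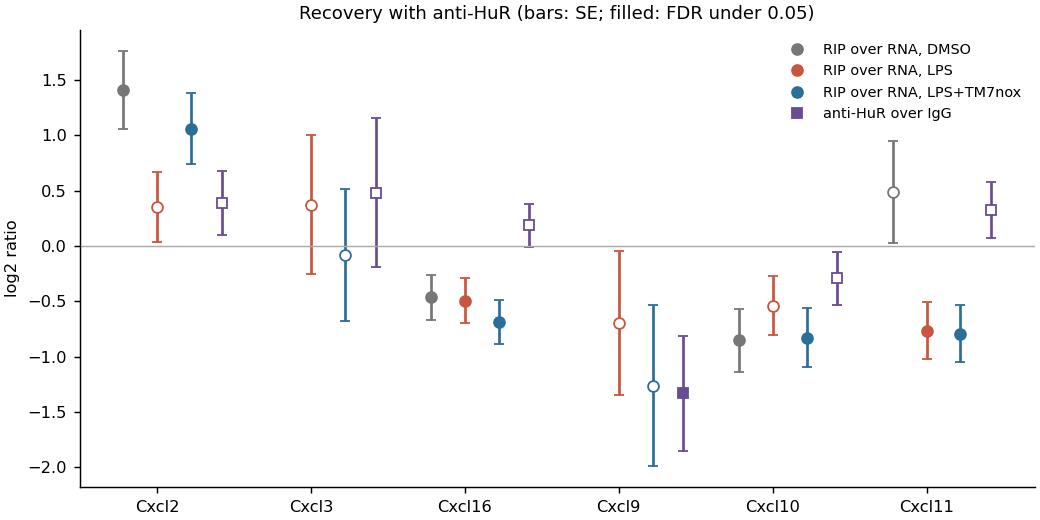
Log2 ratio of anti-HuR RIP over total RNA in each treatment (circles) and of anti-HuR RIP over IgG across treatments (squares) for 6 members, with bars for 1 SE and filled points for an edgeR FDR under 0.05; Cxcl3 and Cxcl9 have no DMSO ratio. Cxcl2 is above 0 in DMSO at 1.41 and in LPS+TM7nox at 1.06, while its ratio over IgG is 0.39 and open.

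Other mRNAs of the chemokine system and of AU-rich decay lay on both sides of IgG in the same anti-HuR libraries. These ratios too are relative to the bulk of genes. Of 8 CXC receptors and scavenging receptors listed, 3 passed the filter in the IgG comparison and 2 were called higher than IgG, beside 33.8% higher and 34.2% lower over all genes. These were Cxcr4, the Cxcl12 receptor (log2 5.56, SE 0.78, edgeR FDR 3.56e-06), and Cxcr5, the Cxcl13 receptor (1.26, SE 0.37, edgeR FDR 0.00541). The Cxcr4 value was 7.99 without the IgG library of DMSO (edgeR FDR 0.000254). Cxcr4 passed the filter through RIP libraries, where it is high, so its call carries no weight. Cxcr6, the Cxcl16 receptor, had 0.44 (SE 0.70, edgeR FDR 0.592). Of the proteases that shed Cxcl16, Adam10 was called higher than IgG (1.39, SE 0.18, edgeR FDR 1.42e-06) and Adam17 lower (-1.30, SE 0.14, edgeR FDR 6.59e-08). Of 9 decay and stability factors, 7 were called higher and 1 lower, with a list median of 3.11 beside a median near 0 over all genes. The largest were Elavl1 itself (5.45), the RNA-binding ubiquitin ligase Rc3h2 (4.72) and the decay factor Khsrp (4.17), and the lower one was the endonuclease Zc3h12a, also called regnase-1 (-0.49), all with an edgeR FDR of at most 0.00261. Zc3h12a was named after its values were seen, and it was not called in replicate 3 alone (edgeR FDR 0.0589) or without the filter on low counts (-0.37, edgeR FDR 0.153). Of the 7, Zfp36 (0.59) was lost without the IgG library of DMSO (edgeR FDR 0.141) or of LPS+TM7nox (0.107).

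The density of AU-rich pentamers was set beside recovery and response over all genes with a UTR value. In LPS, genes with 2 or more nonamers (239 genes) had a median RIP over RNA of 0.62 on the log2 scale and 48.5% were called higher, against -0.69 and 13.4% for genes with no pentamer (2905 genes). Cxcl2, with 4 nonamers, had 0.35 there. Genes with 7 or more pentamers per kb (259 genes), the density class of Cxcl1, Cxcl2 and Cxcl3, had a median of -0.63, with 15.4% called higher. The classes by count and by density thus lay on opposite sides of 0. The part of UTR length in this was not tested. For the change in RNA from LPS to LPS+TM7nox, the medians were -0.04 in genes with no pentamer, 0.04 with 5 or more and -0.02 with 7 or more per kb. For the same change in RIP, the median was -0.20 in genes with no pentamer, of which 4.70% were called higher and 12.2% lower. It was 0.18 with 5 or more, of which 16.4% were higher and 4.63% lower, 0.22 with 2 or more nonamers and -0.13 with 7 or more per kb. These class values are descriptions without a test.

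**Figure D5:**
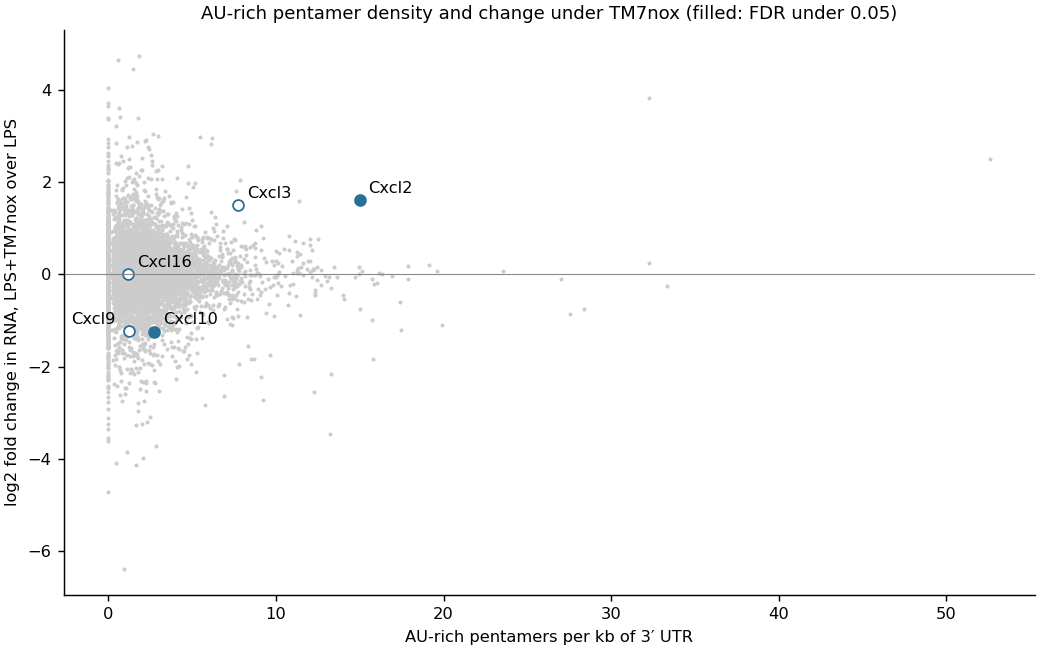
Log2 fold change in total RNA from LPS to LPS+TM7nox against AU-rich pentamers per kb of 3′ UTR, for all genes with both values (grey) and for the 5 members with both (blue, filled for an edgeR FDR under 0.05). Cxcl2 lies far right at 15.0 per kb and up at 1.62, Cxcl10 at 2.74 per kb and -1.24. The grey points lie on both sides of 0.

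The rest of the pathway was described from gene lists. Of 8 further CXC ligands, 2 passed the filter in RNA and neither was called. Cxcl14 averaged 1.35 CPM in DMSO and 0.574 CPM in LPS (edgeR FDR 0.371), and was called lower with the replicate number as a paired block (-1.61, edgeR FDR 0.0302). Pf4, which encodes platelet factor 4, averaged 0.371 and 0.747 CPM (edgeR FDR 0.526). The other 6 stayed at or under 0.237 CPM in every library. Of the receptors, Cxcr2, through which Cxcl1, Cxcl2 and Cxcl3 act, reached at most 0.183 CPM. Cxcr3, the receptor of the interferon-induced ligands, averaged 1.11, 0.603 and 0.230 CPM in RNA under DMSO, LPS and LPS+TM7nox, and was called in neither step (edgeR FDR 0.217 and 0.200). Cxcr5 was called higher in RNA with LPS (0.95, SE 0.31, edgeR FDR 0.0239), from 2.84 to 5.87 CPM. That call was lost without RNA DMSO replicate 2 (edgeR FDR 0.057) or RNA LPS replicate 1 (0.0553), 3 (0.0531) or 4 (0.0504). Cxcr4 was seen mainly in RIP, at 6.65 CPM in DMSO, 0.474 CPM in LPS and 3.85 CPM with TM7nox. The fitted steps were -3.87 (edgeR FDR 3.51e-05) and 3.04 (edgeR FDR 0.00165). Cxcr4 passed the filter through groups where it is high, so these calls carry no weight. Adam10 fell with LPS in RNA from 141 to 76.0 CPM (-0.95, SE 0.17, edgeR FDR 0.000434). In this comparison 21.7% of genes were called lower.

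Of 10 interferon pathway genes, 7 were called higher with LPS in RNA, led by Ifnb1, which encodes interferon beta (log2 7.30), the signal transducer Stat2 (2.84) and the transcription factor Irf7 (2.79). The list median was 1.85 beside -0.04 over all genes, of which 20.2% were called higher. With TM7nox against LPS, 0 were called higher and 1 lower, Irf1 (-0.77, SE 0.24, edgeR FDR 0.048), with a list median of -0.33, beside 7.37% higher and 6.4% lower over all genes. The Irf1 call was lost when any RNA library was left out other than DMSO replicate 1, LPS replicate 3 and LPS+TM7nox replicate 2 (edgeR FDR 0.0561 to 0.131). All 11 NF-kB pathway genes were called higher with LPS, led by Nfkbiz (6.07), Tnfaip3 (4.79) and Bcl3 (4.57), with a list median of 2.51. Rela was the exception in replicates 1 and 2 alone (0.41, edgeR FDR 0.248). With TM7nox, 4 were called lower than with LPS. These were Bcl3 (-1.52), Tnfaip3, a brake on NF-kB signalling (-1.19), and the inhibitors Nfkbie (-0.92) and Nfkbia (-0.91). The subunit gene Rela was called higher (0.44), though not without the filter on low counts (edgeR FDR 0.101), and the list median was -0.33. Nfkbia and Rela were named after their values were seen.

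Over all genes, 20.2% were called higher and 21.7% lower with LPS in RNA. Of 9 mRNA decay and stability factors, 5 were called higher with LPS in RNA, led by Zc3h12a (4.54) and Zfp36, which encodes tristetraprolin (4.53), and 2 lower, Zfp36l2 (-0.78) and Khsrp (-0.35). Rc3h1 (0.58), Rc3h2 (0.48), Hnrnpd (0.33) and Khsrp were named after their values were seen. Of these calls, Rc3h2 was lost without RNA DMSO replicate 4 or RNA LPS replicate 2, and Zfp36l2 without RNA DMSO replicate 1 or RNA LPS replicate 3 or 4. Hnrnpd was lost without RNA DMSO replicate 2 or 3 or RNA LPS replicate 1, 3 or 4, and Khsrp without RNA DMSO replicate 3 or RNA LPS replicate 2, 3 or 4 (edgeR FDR 0.0505 to 0.107 over these). Upper-quartile scaling ended the calls of Hnrnpd (edgeR FDR 0.107) and Rc3h2 (0.0579), and leaving out the filter those of Hnrnpd (0.0823) and Khsrp (0.235). With TM7nox, 3 were called lower than with LPS and 0 higher, beside 6.4% lower and 7.37% higher over all genes. These were Zfp36l1 (-1.40, edgeR FDR 0.0147), Zc3h12a (-0.58, edgeR FDR 0.0397) and Hnrnpd (-0.51, edgeR FDR 0.00828). The Zc3h12a call was lost without RNA DMSO replicate 4 or any single LPS or LPS+TM7nox RNA library (edgeR FDR 0.0517 to 0.103). Elavl1 mRNA was called in neither step (0.24 and -0.24, SE 0.16 each).

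The genes whose pattern was most like each abundant member were found over the 24 RNA and RIP libraries. The measure was the root-mean-square difference of mean-centred log2(CPM + 1) among 8285 genes that are no members. For Cxcl10 these were Ifit2 (0.32) and Ifit1 (0.43), which encode interferon-induced proteins and lay closer than the nearest member, Cxcl11 (0.55). For Cxcl11 they were the chemokine gene Ccl22 (0.50) and Ifit1bl1 (0.51), beside 0.55 for Cxcl10. Cxcl16 lay nearest to Ifi213 (0.27) and Lpxn (0.28). Cxcl2 had no close neighbour. Its nearest were Rsad2 (0.83), the antiviral gene for viperin, with means of 26.9, 2852 and 3830 CPM in RNA under DMSO, LPS and LPS+TM7nox, and the cyclooxygenase gene Ptgs2 (1.08), with 17.2, 2586 and 2144 CPM. The nearest member to Cxcl2, Cxcl10, was at 1.92.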

How the data were processed

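Total RNA, anti-HuR RIP and IgG RNA of RAW264.7 cells were sequenced after a stranded SMART-Seq preparation, per the labels' protocols. The deposited values are whole-number counts per gene, made by the authors. FastQC 0.11.9, STAR, HTSeq, DESeq2 and GRCm39 are named in the submitters' processing notes. For the annotation release and strand setting: not given in the sources used here. Of 55483 gene identifiers, 51731 (93.2%) matched GENCODE M39.

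Genes were filtered with filterByExpr at a minimum count of 10, scaled by TMM and tested with edgeR 4.0.16 (R 4.3.3, quasi-likelihood, two-sided), with Benjamini-Hochberg adjustment over all genes tested and an FDR under 0.05. RNA and RIP were each fitted on 12 libraries, RIP over RNA and its changes on 24, and anti-HuR against IgG on 15 with treatment as a covariate. The SE is the absolute log2 fold change over the square root of the F statistic. Intervals of pooled ratios (95%) and floors of 3 counts cover counting error only. Alternatives were RLE and upper-quartile scaling, DESeq2 1.42.0, no filter, a minimum count of 50, each library left out, replicates 1 and 2 or 3 and 4 alone, and a replicate block. The union of exons as gene length was chosen after seeing the data.

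The tests carry no replicate block, and the fit with it is an alternative. Same-numbered libraries of different groups deviated together, with r over 0.1 in 59 of 60 pairs (median 0.452, against -0.167 for other numbers, over 8611 genes). The exception, at 0.0383, is between RNA DMSO and RIP LPS+TM7nox, which were not compared. The labels do not say what a number marks.

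The members and gene lists were chosen with earlier results of these data known. Named were all members, receptors and other ligands that passed the filter, at most 3 called genes per other list and comparison, overlapping genes, and the 2 nearest patterns of each member averaging at least 5 CPM.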

Additional observations from a re-analysis of the deposited data

Results flagged for a closer look

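Of 39 groups of 4 libraries with counts, 4 held a library far from the other 3. All 4 are low counts. Chance marks about 1 group in 20, but that rate does not apply to the first 2 groups, where any single count beside 0 in the other 3 libraries is marked. Cxcl3 measured 0.218 CPM in RNA DMSO replicate 1, from 1 count in the shallowest library, against 0 in the other 3. Cxcl9 measured 0.0335 CPM in RIP DMSO replicate 2, also from 1 count, against 0 in the other 3. Cxcl9 measured 0.202 CPM in RIP LPS+TM7nox replicate 1, below 0.420 to 0.461 CPM in the others. Cxcl11 measured 0.178 CPM in RIP DMSO replicate 3, below 0.490 to 0.503 CPM in the others.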

How the results depend on the processing

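The number of members called, 3 for RNA LPS+TM7nox against LPS, was 4 without a filter, 1 in replicates 1 and 2 alone and 5 in replicates 3 and 4 alone. For RIP over RNA in DMSO it was 3, and 1 in replicates 1 and 2 alone, with 1 to 3 when 1 library was left out. In LPS it was 2, and 0 with RLE scaling, with DESeq2 and in replicates 1 and 2 alone, 1 at a minimum count of 50, 3 with upper-quartile scaling, without a filter, with the replicate block and in replicates 3 and 4 alone, where Cxcl10 was gained (edgeR FDR 0.039, 0.0107, 0.0401 and 0.0177), and 1 to 3 with 1 library left out. In LPS+TM7nox it was 4, and 2 with RLE scaling and with DESeq2 and 1 in replicates 1 and 2 alone. Against IgG it was 1, and 0 without a filter and at a minimum count of 50, 2 in replicate 3 alone, and 0 to 2 with 1 library left out. The cause was not tested.

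The log2 values that changed sign all belong to differences that were not called. For LPS+TM7nox against LPS in RNA, Cxcl16 had -0.018 with RLE scaling and with DESeq2, -0.011 with the replicate block, -0.086 in replicates 3 and 4 alone, and -0.15 to 0.10 with 1 library left out. In the same comparison Cxcl14 had 0.067 in replicates 1 and 2 alone and -2.65 to 0.82 with 1 library left out, and Pf4 had 0.047 in replicates 3 and 4 alone. For LPS against DMSO, Pf4 had -0.63 in replicates 3 and 4 alone and -0.45 to 1.13 with 1 library left out. For RIP over RNA, Cxcl11 had -0.019 in DMSO in replicates 3 and 4 alone. Cxcl3 had -0.083 in LPS in replicates 3 and 4 alone, and -0.20 to 0.59 with 1 library left out. In LPS+TM7nox it had 0.10 with RLE scaling, 0.078 with DESeq2, 0.26 in replicates 1 and 2 alone and -0.82 to 0.26 with 1 library left out.

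For the change of RIP over RNA from DMSO to LPS, Cxcl16 had 0.018 with RLE scaling, 0.019 with DESeq2, 0.12 without a filter, 0.072 in replicates 3 and 4 alone and -0.14 to 0.18 with 1 library left out, and Cxcl10 had -0.016 to 0.86. For the change from LPS to LPS+TM7nox, Cxcl3 had -1.19 to 0.12 and Cxcl9 -1.03 to 0.090 with 1 library left out, and Cxcl9 had 0.55 in replicates 1 and 2 alone. Cxcl11 had 0.016 with RLE scaling, 0.015 with DESeq2, 0.0023 in replicates 1 and 2 alone and -0.18 to 0.19 with 1 library left out.

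The replicate block changed 1 member's call, that of Cxcl10 in RIP over RNA in LPS (-0.55, edgeR FDR 0.0401 in place of 0.0779). Over all genes it raised the number called for LPS+TM7nox against LPS from 1704 to 3091 in RNA and from 2212 to 4577 in RIP. The same counts were 168 and 789 in replicates 1 and 2 alone, and 3489 and 1070 in replicates 3 and 4 alone. For LPS against DMSO, 5190 genes in RNA and 6090 in RIP became 1668 and 3392 in replicates 1 and 2 alone, and for LPS+TM7nox against DMSO in RNA 5850 became 2246. For the change of RIP over RNA from DMSO to LPS, 6 genes became 67 with DESeq2, 50 with the replicate block, 0 in replicates 1 and 2 alone and 13 in replicates 3 and 4 alone. From LPS to LPS+TM7nox, 1 gene became 3 with DESeq2, 2 with the block and with upper-quartile scaling, and 0 in either pair of replicates. Cxcl1, Cxcl3 and Cxcl9 had 0 to 3 counts over a DMSO group in RNA and IgG, which limits the precision of their ratios. Replicates 1 and 2 alone also ended the TM7nox calls in RNA of Bcl3, Tnfaip3, Nfkbia, Nfkbie, Rela, Irf1, Zfp36l1, Zc3h12a and Hnrnpd, and the call of Cxcl9 for LPS+TM7nox against DMSO (edgeR FDR 0.173). They ended the LPS calls against DMSO in RNA of Adam10, Rela, Irf9, Cxcr5, Rc3h1, Rc3h2, Hnrnpd, Khsrp and Zfp36l2 (edgeR FDR 0.0615 to 0.541), besides Cxcl3 and Cxcl9.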
